A study of Arabidopsis thaliana with 12 samples.

Results

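Transcript levels were examined for the 7 Arabidopsis genes of the heme-containing catalases and ascorbate peroxidases that are CAT1 (AT1G20630), CAT2 (AT4G35090), CAT3 (AT1G20620), APX1 (AT1G07890), APX2 (AT3G09640), sAPX (AT4G08390) and tAPX (AT1G77490). The genes were chosen by name, as 7 of the 33607 genes in the deposited tables, and not by their values. Polyadenylated RNA was sequenced from roots and rosettes of Columbia-0 plants carrying a transgene. IMA1 OE plants, line #7-4, expressed the open reading frame of IMA1, which encodes a small peptide that acts in iron-deficiency signalling, from the constitutive 35S promoter. They had been moved to full medium or to Fe-deficient medium, which lacked Fe and held 100 µM FerroZine, an Fe chelator. EYFP OE plants expressed the fluorescent protein EYFP from the same promoter and had been moved to full medium only. All plants grew in vitro under continuous light, for 10 days on full medium before the transfer and for 72 hours after it. The 3 groups, sampled as roots and as rosettes, gave 6 groups of 2 libraries each. EYFP OE libraries from Fe-deficient medium were not analysed here, so line and medium differ together when Fe-deficient IMA1 OE plants are set against EYFP OE plants, and their parts cannot be told apart. Each transgene was represented by 1 line. The labels do not say whether replicate libraries came from separate plates or plants, so the p-values measure only the spread between these libraries, which may be technical.

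Catalases and ascorbate peroxidases both remove hydrogen peroxide, and both need a heme group, and so Fe, in their active site. Catalases act mainly in peroxisomes and split hydrogen peroxide without another electron donor. In leaves a large part of that peroxide comes from glycolate oxidase in photorespiration. Ascorbate peroxidases reduce hydrogen peroxide with ascorbate as the electron donor, in the cytosol (APX1, APX2), the chloroplast stroma and mitochondria (sAPX) or at the thylakoid membrane (tAPX), and other enzymes then regenerate the ascorbate.

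The gene copies are related, so the sequence they share was examined, since a read from shared sequence could be counted for either copy. In the RefSeq annotation of TAIR10.1, the coding sequences of CAT1 and CAT2 were identical at 80.26% of aligned bases. The figure was 77.31% for CAT1 and CAT3, 77.93% for sAPX and tAPX, and 73.03% for APX1 and APX2. No pair shared a stretch of 50 bases anywhere in the coding sequence, and the longest shared run was 32 bases, in CAT1 and CAT2. It is shown in capitals, with its flanks, as the longest identical stretch in the coding sequences of these genes. Untranslated sequence, and longer stretches with few mismatches, were not examined.
CAT1, coding bases 367 to 422: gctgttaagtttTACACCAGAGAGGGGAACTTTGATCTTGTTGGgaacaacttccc
CAT2, coding bases 367 to 422: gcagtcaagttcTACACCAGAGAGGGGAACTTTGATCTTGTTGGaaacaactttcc
The cytosolic pair was less alike, and the longest run shared by APX1 and APX2 was 12 bases.
APX1, coding bases 517 to 552: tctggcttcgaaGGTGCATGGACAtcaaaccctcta
APX2, coding bases 517 to 552: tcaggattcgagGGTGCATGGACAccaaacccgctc
How the authors treated reads that fit more than 1 gene is not given in the sources used here, so levels of the catalase copies carry that uncertainty.

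CAT3 and CAT1 are neighbours on the plus strand of chromosome 1. CAT3 spans chr1:7142972-7146540 and CAT1 spans chr1:7146636-7150180. Only 95 bases, chr1:7146541-7146635, lie between the end of CAT3 and the start of CAT1, and they are shown because the levels of these neighbours differ widely.
CAT3-to-CAT1 spacer, chr1:7146541-7146635, plus strand: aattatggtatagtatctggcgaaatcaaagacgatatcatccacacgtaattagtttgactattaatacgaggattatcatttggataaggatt
CAT2 spans chr4:16700312-16703504 on the minus strand, and 95 bases of it overlap AT4G35080 on the other strand. AT4G35080 stood at 36.82 to 40.32 in the 4 root libraries and at 16.68 to 19.09 in the 4 rosette libraries of the tables for full medium. The library kit keeps strand, but whether the counting used it is not given. APX1 spans chr1:2437281-2439665, APX2 spans chr3:2956156-2958330, sAPX spans chr4:5314871-5317963 and tAPX spans chr1:29117500-29121093, all on the plus strand. These coordinates are those of TAIR10.1, and the deposited tables hold none.

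The 250 bases before the annotated gene start were searched on both strands for 3 short motifs that are known binding sequences of transcription factors in plants. These were the G-box CACGTG, the heat shock element core GAANNTTC and the evening element core AATATCT, and no match overlapped another. Of 27443 such windows over the genome, 6.49% held the G-box, 9.55% the heat shock element core and 10.0% the evening element core. The CAT3 window held 2 evening element cores, at positions -209 and -77 from the gene start. The APX1 window held 1 heat shock element core at -116. The APX2 window held a G-box at -204 and a heat shock element core at -61. The windows of CAT2 and sAPX held no match, and those of CAT1 and tAPX run into a neighbouring gene and are not shown. A match is a description of the letters and does not show binding. The windows of CAT3, APX1 and APX2 are printed because they hold matches, and that of CAT2 for contrast, each 5′ to 3′ toward the gene with the matches in capitals.
CAT3, chr1:7142722-7142971, plus strand: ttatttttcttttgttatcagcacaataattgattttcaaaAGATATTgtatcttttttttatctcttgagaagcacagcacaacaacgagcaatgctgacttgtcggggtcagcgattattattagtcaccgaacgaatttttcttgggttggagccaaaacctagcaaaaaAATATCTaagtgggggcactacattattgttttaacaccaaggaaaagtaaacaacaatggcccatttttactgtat
APX1, chr1:2437031-2437280, plus strand: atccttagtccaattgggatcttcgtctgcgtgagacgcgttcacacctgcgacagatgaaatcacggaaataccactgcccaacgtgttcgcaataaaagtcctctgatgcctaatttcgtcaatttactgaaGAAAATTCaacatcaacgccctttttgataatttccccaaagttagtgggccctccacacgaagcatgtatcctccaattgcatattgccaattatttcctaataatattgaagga
APX2, chr3:2955906-2956155, plus strand: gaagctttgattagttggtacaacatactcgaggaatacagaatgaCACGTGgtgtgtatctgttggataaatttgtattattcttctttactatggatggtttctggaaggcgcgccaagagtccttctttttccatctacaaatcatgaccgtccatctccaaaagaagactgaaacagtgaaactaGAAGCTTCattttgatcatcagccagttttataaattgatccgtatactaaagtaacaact
CAT2, chr4:16703505-16703754, minus strand: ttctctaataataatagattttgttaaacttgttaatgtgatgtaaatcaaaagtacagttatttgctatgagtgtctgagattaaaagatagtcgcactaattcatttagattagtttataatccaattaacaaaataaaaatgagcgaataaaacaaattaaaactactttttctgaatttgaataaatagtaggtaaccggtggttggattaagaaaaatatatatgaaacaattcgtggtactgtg

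Levels are the authors' normalized signal, given without a unit or read totals. It is length-scaled, so levels of different genes are set side by side as signal per length. The 4 tables, 1 for each IMA1 OE group with its EYFP OE group, were normalized separately, and the EYFP OE values of 6 of the 7 genes differed by at most 3.45% between the tables of a tissue. The heading of the IMA1 OE columns reads +Fe in 1 table, that of the Fe-deficient rosettes. These columns were assigned to Fe-deficient IMA1 OE rosettes through the sample labels, a doubt that touches every value given for that group. The summed level of 5 leaf markers was 99.5 to 213 in root libraries and 19027 to 23768 in rosette libraries, and that of 5 root markers was 2356 to 4259 in root libraries and 85.03 to 188 in rosette libraries. In rosettes 3 or 4 of the 5 root markers were below 1. IMA1 itself stood at 322 to 483 in IMA1 OE libraries, against 1.87 to 9.03 in EYFP OE libraries.

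The order of levels differed between the organs. In roots APX1 was the most abundant, at 476 to 652 over the 6 libraries (median 536). By the mean signal of the EYFP OE libraries in the full-medium table, APX1 ranked 113th of 19741 tested genes. CAT3 followed at 224 to 290 (median 257), then CAT2 at 130.5 to 186 (median 163) and sAPX at 114 to 147 (median 124). CAT2 exceeded sAPX in 6 of 6 root libraries, although their ranges overlapped. CAT1 at 7.35 to 9.59, tAPX at 2.28 to 3.45 and APX2 at 0.23 to 0.98 were far lower.

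In rosettes CAT3 led, at 639.7 to 2332 (median 1263), and ranked 65th of 18731 tested genes by mean EYFP OE signal in the full-medium table. CAT2 at 300.1 to 596 (median 460.1) and APX1 at 269 to 648 (median 333) came next and could not be ordered, since CAT2 was the higher of these genes in 3 of 6 libraries. The chloroplast genes sAPX, at 64.4 to 129, and tAPX, at 66.7 to 92.7, overlapped too. CAT1 stood at 20.2 to 28.7. APX2 was listed at 0.01 in 5 of the 6 rosette libraries and at 0.07 in the other. The value of 0.01 is about the level that these tables give to unread genes of its length, and 0.07 lies above it.

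**Figure D1:**
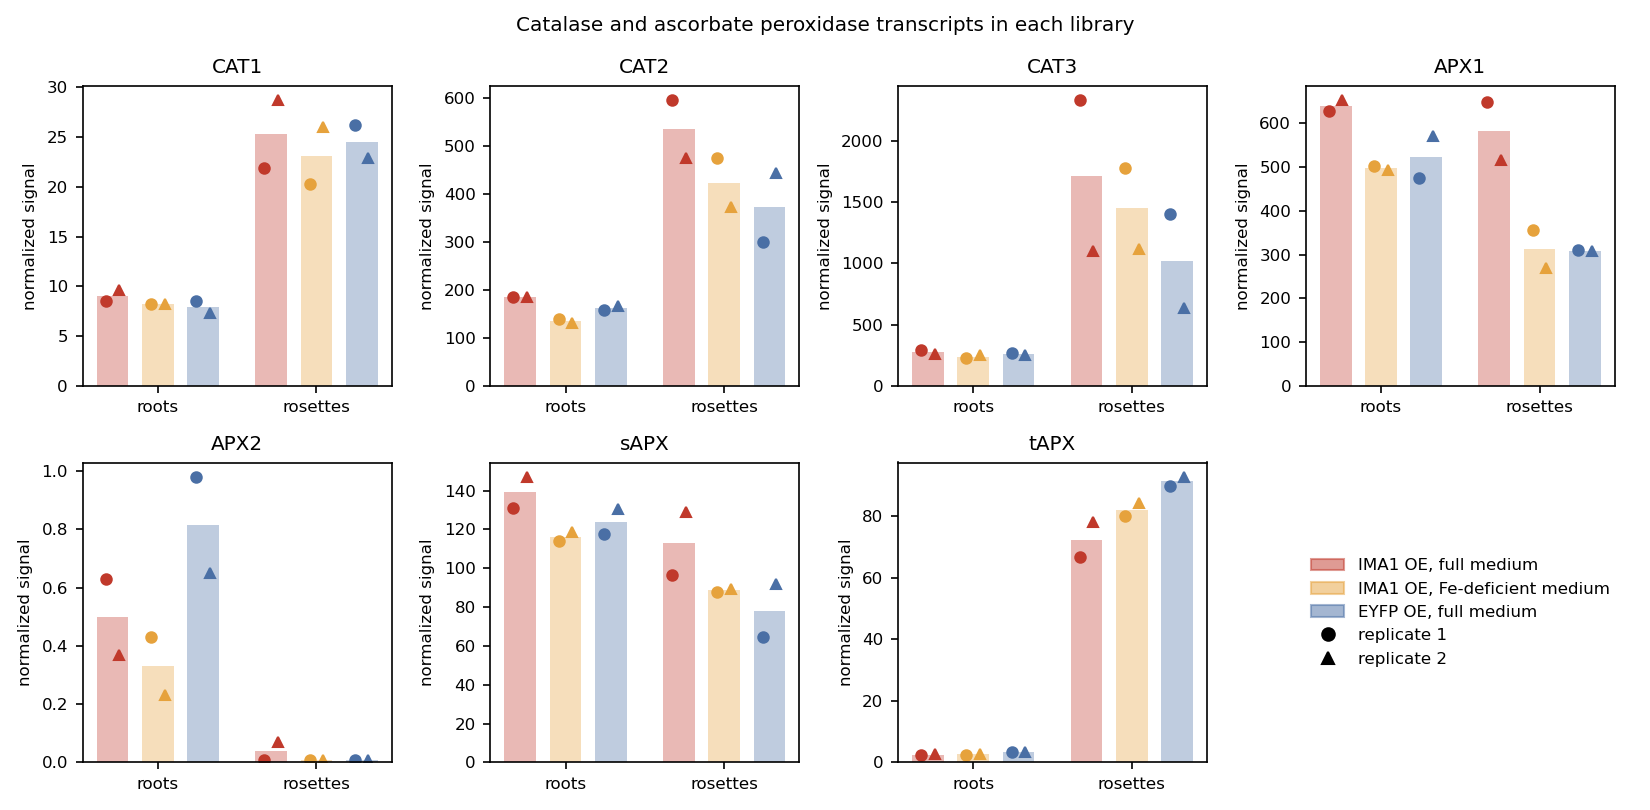
Normalized signal (vertical axes, no unit, a separate scale for each gene) of the 7 genes in roots and rosettes, with bars for the mean of 2 libraries and points for the libraries; EYFP OE values are those of the full-medium tables. In rosettes APX1 stood at 648 and 516 in IMA1 OE on full medium, above the other 4 rosette libraries, and tAPX was lower in all 4 IMA1 OE rosette libraries than in either EYFP OE library.

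Set side by side in EYFP OE plants, the organs differed most, APX2 aside, for tAPX, the thylakoid enzyme, at 89.7 and 92.7 in rosettes against 3.45 and 3.24 in roots, a ratio of the means of 27.3. The catalase genes were also higher in rosettes, with rosette-to-root ratios of 3.90 for CAT3, 3.09 for CAT1 and 2.29 for CAT2. APX1 and sAPX ran the other way. APX1 averaged 308 ± 1.62 in rosettes and 523 ± 67.3 in roots (SD, n = 2 each), and sAPX averaged 78.2 ± 19.4 in rosettes and 124 ± 9.11 in roots (SD, n = 2 each). Root and rosette values come from tables normalized separately, so these ratios are descriptions with no test.

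The question of the full-medium comparison in rosettes is what IMA1 overexpression does to leaf transcripts when Fe is supplied. APX1 showed the widest separation there of the 6 genes tested. APX1, the main cytosolic ascorbate peroxidase, had a signal of 648 and 516 in IMA1 OE rosettes, against 309.6 and 307 in EYFP OE rosettes. The groups did not overlap, and the means were 582 ± 93.1 in IMA1 OE and 308 ± 1.62 in EYFP OE (SD, n = 2 each), a ratio of 1.89. The log2 change, on the scale log2(signal + 1) used for all changes here, was 0.90 (SE 0.17, 95% interval 0.45 to 1.36). It did not pass the test, with an unadjusted p of 0.00392 and a limma adjusted p of 0.368 over 18731 tested genes. Leaving out any 1 of the 4 libraries kept the change between 0.74 and 1.07.

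CAT2, the catalase most tied to photorespiration in leaves, had a signal of 596 and 475 in IMA1 OE rosettes on full medium, against 300.1 and 445 in EYFP OE rosettes. The IMA1 OE libraries were the higher, though by little at their nearest values. The log2 change was 0.54 (SE 0.25, 95% interval -0.11 to 1.20, limma adjusted p 1), and it was 0.26 without EYFP OE replicate 1 and 0.82 without EYFP OE replicate 2. sAPX, the stromal and mitochondrial enzyme, stood at 96.6 and 129 in IMA1 OE rosettes, against 64.4 and 91.9 in EYFP OE rosettes. Its groups did not overlap either, with a log2 change of 0.53 (limma adjusted p 0.984, SE 0.24). That change was 0.28 without EYFP OE replicate 1, 0.32 without IMA1 OE replicate 2, 0.74 without IMA1 OE replicate 1 and 0.78 without EYFP OE replicate 2.

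tAPX was the 1 gene with the reverse order, at 66.7 and 77.9 in IMA1 OE rosettes, against 89.7 and 92.7 in EYFP OE rosettes. The means were 72.3 ± 7.95 in IMA1 OE and 91.2 ± 2.12 in EYFP OE (SD, n = 2 each), and the log2 change was -0.34 (limma adjusted p 0.968, SE 0.14). CAT1, a catalase known for responses to abscisic acid, overlapped between groups, at 21.9 and 28.7 in IMA1 OE rosettes against 26.2 and 22.9 in EYFP OE rosettes. APX2, the cytosolic gene known to be induced by excess light and heat, was at 0.01 and 0.07 in IMA1 OE rosettes and at 0.01 in both EYFP OE rosette libraries, and failed the filter on low values.

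CAT3 had the largest spread between replicates of the 6 genes tested in rosettes. Its signal was 2332 and 1103 in IMA1 OE rosettes on full medium, against 1407 and 639.7 in EYFP OE rosettes, so the groups overlapped. The log2 change was 0.76 (SE 0.53, 95% interval -0.61 to 2.13, limma adjusted p 1). Without EYFP OE replicate 2 it was 0.19, without IMA1 OE replicate 1 it was 0.22, without IMA1 OE replicate 2 it was 1.30, and without EYFP OE replicate 1 it was 1.33. Replicate 1 was the higher library of CAT3 in all 3 rosette groups, 2.11-fold in IMA1 OE on full medium, 1.59-fold in IMA1 OE on Fe-deficient medium and 2.20-fold in EYFP OE.

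CAT3 is a clock-controlled gene, and the clock genes differed between the same libraries. CCA1, a morning clock repressor, had a signal of 31.6 and 78.3 in IMA1 OE rosettes on full medium, of 38.9 and 66.1 on Fe-deficient medium, and of 17.1 and 78.1 in EYFP OE rosettes. It was the lower in replicate 1 each time, as was its partner LHY. TOC1, an evening gene, was the higher in replicate 1, with 43.5 and 17.1 in IMA1 OE rosettes on full medium, 37.4 and 19.8 on Fe-deficient medium, and 41.6 and 14.6 in EYFP OE rosettes. Of the other 4 clock genes, GI, PRR5, PRR7 and PRR9, only PRR5 and PRR7 kept 1 direction between replicates in all 3 rosette groups. The part of these differences in the CAT3 values was not tested.

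Of the 7 genes, 6 passed the filter in rosettes on full medium, and limma called 0 of them at an adjusted p under 0.05, where 0.0107% of all tested genes were called. At an unadjusted p under 0.05 it was 1 of 6, against 5.43% of all tested genes. For 3 of the 6 tested (CAT2, APX1 and sAPX) the IMA1 OE libraries were both higher, as for 13.1% of all tested genes, and for 1 (tAPX) both were lower, as for 18.5%. The median log2 change was 0.54 over the 6 and -0.03 over all tested genes. IMA1, the overexpressed gene, was not called here either, at a log2 change of 6.22 (limma adjusted p 0.150). It was also missed in Fe-deficient rosettes (limma adjusted p 0.467) and in full-medium roots (limma adjusted p 0.0764). Only in Fe-deficient roots was IMA1 called (limma adjusted p 0.00766). A gene left uncalled by this test is therefore not shown to be unchanged. The authors' deposited table holds a p-value from their own test, rounded to 2 decimals, and it was under 0.05 for 4 of the 7, namely CAT2 at 0.00, CAT3 at 0.00, APX1 at 0.00 and sAPX at 0.01. It was under 0.05 with IMA1 OE higher for 0.792% of all 33607 genes. This share, like those given below for the authors' p-values, counts all genes, including those that failed the filter on low values. By mean EYFP OE signal the 4 genes lay at percentiles 92.0 (sAPX) to 99.7 (CAT3) of the tested genes. The count and the share are therefore not like for like. CAT3, called in that table, is the gene whose replicates lay furthest apart among the 6 tested.

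On Fe-deficient medium the higher APX1 signal in IMA1 OE rosettes was not seen. APX1 stood at 356 and 269 in Fe-deficient IMA1 OE rosettes, against 312 and 309 in EYFP OE rosettes of the same table. The means were 312 ± 62.0 in IMA1 OE and 311 ± 2.21 in EYFP OE (SD, n = 2 each), and the log2 change was -0.01 with a 95% interval of -0.48 to 0.47 (limma adjusted p 0.9998). CAT2 overlapped, at 475 and 373 in Fe-deficient IMA1 OE rosettes against 303 and 443 in EYFP OE rosettes. sAPX did too, at 87.9 and 89.3 in Fe-deficient IMA1 OE rosettes against 64.3 and 91.4 in EYFP OE rosettes. CAT3 stood at 1783 and 1119.85 in Fe-deficient IMA1 OE rosettes, against 1424 and 649 in EYFP OE rosettes, with a log2 change of 0.56 (limma adjusted p 0.995, SE 0.46). CAT1, at 20.2 and 26.0 in Fe-deficient IMA1 OE rosettes against 25.9 and 22.7 in EYFP OE rosettes, overlapped as well. APX2 was listed at 0.01 in all 4 libraries of that table.

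tAPX alone did not overlap there, at 79.8 and 84.1 in Fe-deficient IMA1 OE rosettes, against 89.0 and 92.3 in EYFP OE rosettes, with a log2 change of -0.14 (limma adjusted p 0.995, SE 0.11). With 6 genes tested, limma called 0, where 0.00535% of all tested genes were called, and 0 had an unadjusted p under 0.05, against 5.17%. The share of all tested genes with both IMA1 OE libraries lower was 19.5%. In the authors' deposited table the p-value of 1 of the 7 was under 0.05, CAT3 at 0.00, against 0.949% of all genes.

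**Figure D2:**
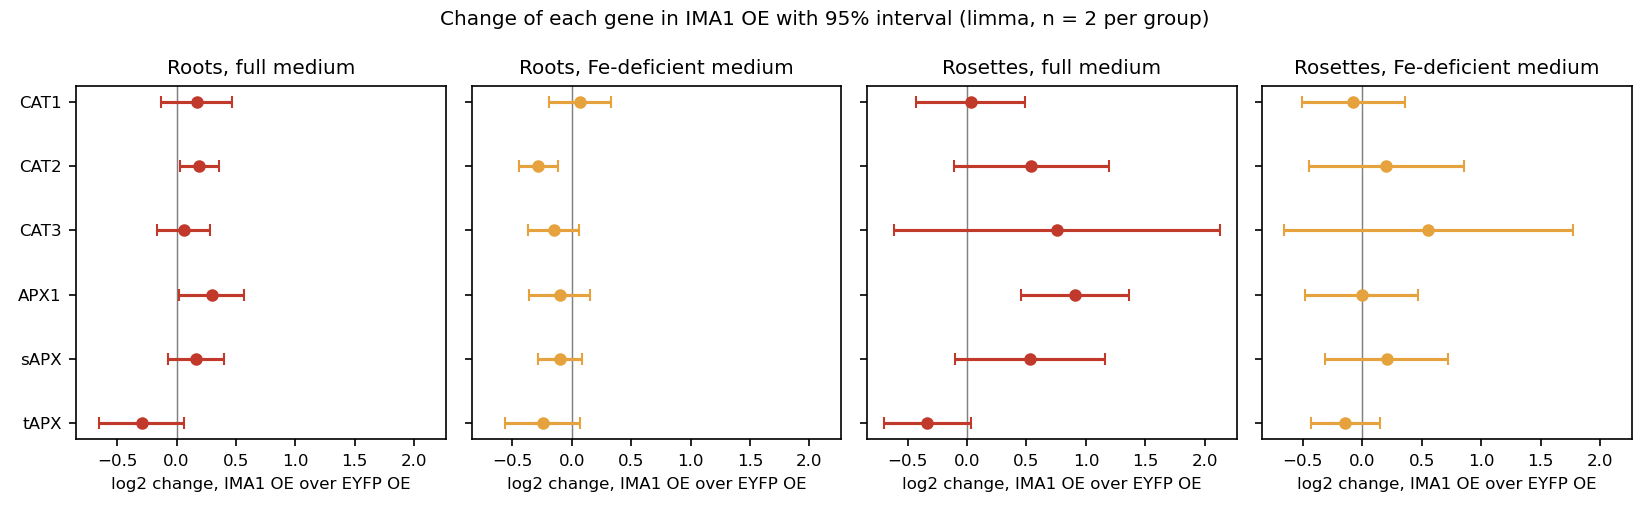
Log2 change of the 6 tested genes in IMA1 OE over EYFP OE (horizontal axis, log2(signal + 1) scale) in the 4 comparisons, as points with 95% limma intervals (n = 2 per group). In rosettes on full medium the APX1 interval of 0.45 to 1.36 lay clear of 0, while the CAT3 interval ran from -0.61 to 2.13; none of the adjusted p-values was under 0.05.

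In roots on full medium APX1 had a signal of 628 and 652 in IMA1 OE roots, against 476 and 571 in EYFP OE roots. The means were 640.4 ± 17.1 in IMA1 OE and 523 ± 67.3 in EYFP OE (SD, n = 2 each), a ratio of 1.22, and the log2 change was 0.30 (SE 0.11, 95% interval 0.02 to 0.57, limma adjusted p 1). It was 0.17 without EYFP OE replicate 1 and 0.43 without EYFP OE replicate 2. CAT2 stood at 186.43 and 186.13 in IMA1 OE roots, against 158 and 168 in EYFP OE roots, with a log2 change of 0.19 (limma adjusted p 1, SE 0.06). sAPX stood at 131 and 147 in IMA1 OE roots, against 117 and 130.3 in EYFP OE roots, a log2 change of 0.17 (limma adjusted p 1, SE 0.09) that ranged from 0.08 to 0.25 when 1 library was left out. The IMA1 OE libraries were the higher for these 3 genes, although the nearest libraries of sAPX were almost level.

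CAT3 overlapped between groups, at 290.4 and 258 in IMA1 OE roots against 272 and 253 in EYFP OE roots. CAT1 overlapped as well, at 8.48 and 9.59 in IMA1 OE roots against 8.52 and 7.35 in EYFP OE roots. tAPX was low in roots and lower in IMA1 OE, at 2.28 and 2.83, against 3.45 and 3.24 in EYFP OE roots, with a log2 change of -0.29 (limma adjusted p 1, SE 0.14). APX2 stood at 0.63 and 0.37 in IMA1 OE roots, against 0.98 and 0.65 in EYFP OE roots, and was not tested. The authors' filter flag marked APX2 as low in all 4 tables and tAPX as low in both root tables. The summed leaf marker level, which also was lower in IMA1 OE roots, was 120 to 183 in IMA1 OE roots on full medium, 99.5 to 158 in IMA1 OE roots on Fe-deficient medium and 212 to 213 in EYFP OE roots. RBCS1A, at a mean of 135 in EYFP OE roots, made up most of it. RBCS1A, LHCB2.1 and PSAF were lower in IMA1 OE on each medium, while LHCB1.1 and CA1 overlapped between groups. CA1 had the higher mean in IMA1 OE, at 0.505 against 0.435 on full medium and 0.47 against 0.425 on Fe-deficient medium. In bulk samples, fewer cells of a type and less RNA per cell cannot be told apart, and the part of the leaf markers in the tAPX values was not tested.

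In that comparison limma called 0 of the 6 genes tested, where 0.0355% of all tested genes were called. At an unadjusted p under 0.05 it was 2 of 6 (CAT2 and APX1), against 4.22%. Both IMA1 OE libraries were higher for 3 of 6, as for 13.8% of all tested genes, and lower for 1 of 6, as for 16.2%. The median log2 change was 0.17 over the 6 and -0.01 over all tested genes. In the authors' deposited table the p-value of 1 of the 7 was under 0.05, APX1 at 0.00, against 0.446% of all genes.

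In roots on Fe-deficient medium CAT2 lay on the other side of EYFP OE. Its signal was 139 and 130.5 in Fe-deficient IMA1 OE roots, against 159 and 168 in EYFP OE roots. The means were 135 ± 5.87 in IMA1 OE and 164 ± 6.60 in EYFP OE (SD, n = 2 each), a ratio of 0.822, and the log2 change was -0.28 (SE 0.06, 95% interval -0.44 to -0.12). The unadjusted p was 0.00667 and the limma adjusted p 0.228. CAT3 stood at 224 and 256 in Fe-deficient IMA1 OE roots, against 276 and 258 in EYFP OE roots, with a log2 change of -0.15 (limma adjusted p 0.684, SE 0.08). Its nearest libraries were almost level.

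APX1 in Fe-deficient IMA1 OE roots, at 502 and 494, lay within the EYFP OE values of 485 and 590.4. sAPX overlapped, at 114 and 119 in Fe-deficient IMA1 OE roots against 118 and 131 in EYFP OE roots, and CAT1 stood at 8.19 in both Fe-deficient IMA1 OE libraries, between the EYFP OE values of 8.35 and 7.20. tAPX was the lower again, at 2.43 and 2.74 in Fe-deficient IMA1 OE roots, against 3.35 and 3.14 in EYFP OE roots (log2 change -0.24, SE 0.12, limma adjusted p 0.646). APX2 was at 0.43 and 0.23 in Fe-deficient IMA1 OE roots, against 0.94 and 0.63 in EYFP OE roots.

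limma called 0 of the 6 tested genes in roots on Fe-deficient medium, where 0.920% of all tested genes were called, and 1 of 6 (CAT2) had an unadjusted p under 0.05, against 9.14%. Both IMA1 OE libraries were lower for 3 of 6 (CAT2, CAT3 and tAPX), as for 21.6% of all tested genes. The median log2 change was -0.13 over the 6 and -0.02 over all tested genes. In the authors' deposited table the p-values of 0 of the 7 were under 0.05, against 1.01% of all genes. CAT2 came nearest there, at 0.09.

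The comparisons of an organ share their EYFP OE libraries, so the medium is best read from the IMA1 OE groups themselves, set side by side from separately normalized tables and with no test. In IMA1 OE rosettes APX1 stood at 356 and 269 on Fe-deficient medium, against 648 and 516 on full medium, a ratio of the means of 0.537. sAPX was also lower in both Fe-deficient libraries, with a ratio of 0.786. The ratio for CAT2 was 0.792, but its nearest libraries were level, at 475.42 on Fe-deficient medium and 475.48 on full medium, a gap smaller than the shift of the EYFP OE values of CAT2 between the tables. tAPX was higher in both, with a ratio of 1.13. With CAT2 counted by its values, both Fe-deficient libraries were lower for 3 of the 6 genes, as for 12.6% of all genes tested in both rosette tables, and higher for 1 of 6, as for 8.81%. CAT1 and CAT3 overlapped between media.

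In IMA1 OE roots 5 of the 6 tested genes were lower in both Fe-deficient libraries than in either full-medium library, as were 19.0% of all genes tested in both root tables. They were higher for 0 of the 6, against 12.7%. The 5 include CAT3, whose nearest libraries were almost level, at 256.06 on Fe-deficient medium and 257.72 on full medium. That gap was smaller than the shift of the EYFP OE values of CAT3 between the tables, of 1.47% and 1.88%. The ratio of the means was 0.723 for CAT2, 0.778 for APX1, 0.836 for sAPX, 0.876 for CAT3 and 0.906 for CAT1. tAPX did not follow, at 2.43 and 2.74 on Fe-deficient medium against 2.28 and 2.83 on full medium.

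Whether the change in IMA1 OE over EYFP OE differed between organs was tested as the root minus rosette difference of the changes. On full medium the difference for APX1 was -0.61 (SE 0.22, 95% interval -1.14 to -0.08), with an unadjusted p of 0.0306 and a limma adjusted p of 1 over 21161 genes. The differences for CAT3 (-0.70), CAT2 (-0.35) and sAPX (-0.37) had wider intervals that held 0. limma called 0 of 6, where 0.0189% of all tested genes were called, and 1 of 6 (APX1) had an unadjusted p under 0.05, against 4.32%. For Fe-deficient IMA1 OE plants line and medium differ together from EYFP OE, so the organ difference is not that of the line alone. There limma also called 0 of 6, where 0.313% were called, and 0 had an unadjusted p under 0.05, against 6.76%. The nearest was CAT2, with a difference of -0.48 (limma adjusted p 0.889, SE 0.28).

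The balance among the 3 catalase genes, and among the 4 ascorbate peroxidase genes, can be read inside a library, where a scaling factor common to all genes cancels. The normalization was more than such a factor. Between the 2 root tables the values of EYFP OE replicate 2 shifted by -2.04% for CAT1 and by 3.45% for APX1. Shares and ratios are therefore not free of the normalization. CAT3 made up 56.8% to 64.9% of the summed catalase signal in roots (median 60.1%) and 57.8% to 81.2% in rosettes (median 76.0%). CAT2 held 33.1% to 41.0% in roots and 17.3% to 40.2% in rosettes, and CAT1 never more than 2.21%. In rosettes on full medium the CAT3-to-CAT2 ratio was 3.91 and 2.32 in IMA1 OE, against 4.69 and 1.44 in EYFP OE, so the catalase balance varied within groups as much as between them.

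Among the 4 ascorbate peroxidase genes, with APX3 to APX6 left out of the sum, APX1 held 79.6% to 82.4% of the summed signal in roots and 60.8% to 79.9% in rosettes. tAPX held 0.299% to 0.578% in roots and 8.22% to 19.3% in rosettes. In rosettes on full medium APX1 held 79.9% and 71.4% in IMA1 OE, against 66.8% and 62.5% in EYFP OE, while tAPX held 8.22% and 10.8% in IMA1 OE, against 19.3% and 18.8% in EYFP OE. In Fe-deficient IMA1 OE rosettes tAPX held 15.2% and 19.0%. The sum includes APX1, so a higher APX1 signal lowers the tAPX share even where tAPX does not change. In rosettes on full medium the IMA1 OE to EYFP OE ratio of the mean signals was 1.89 for APX1 and 0.792 for tAPX. The ratio of the chloroplast genes, sAPX to tAPX, was 1.45 and 1.66 in IMA1 OE rosettes on full medium, 1.102 and 1.06 in IMA1 OE rosettes on Fe-deficient medium, and 0.718 and 0.991 in EYFP OE rosettes. These 3 groups did not overlap, but how often the ratio of 2 genes separates the groups in this way was not examined over all genes.

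The shares are lower when APX3 to APX6 are added to the sum, since APX4 averaged 326 ± 48.5 in IMA1 OE rosettes on full medium and 342 ± 64.4 in EYFP OE rosettes (SD, n = 2 each), and APX3 averaged 112 ± 2.52 in IMA1 OE and 116 ± 8.20 in EYFP OE (SD, n = 2 each). APX3 to APX6 were taken by name, and whether their products act as ascorbate peroxidases was not examined. Over all 8 genes APX1 held 52.2% and 42.4% in IMA1 OE rosettes on full medium, against 34.0% and 30.3% in EYFP OE rosettes. tAPX held 5.38% and 6.41% of that sum, which also includes APX1, in IMA1 OE, against 9.85% and 9.13% in EYFP OE. In roots APX1 held 70.5% to 74.8% of the sum over the 8 genes.

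**Figure D3:**
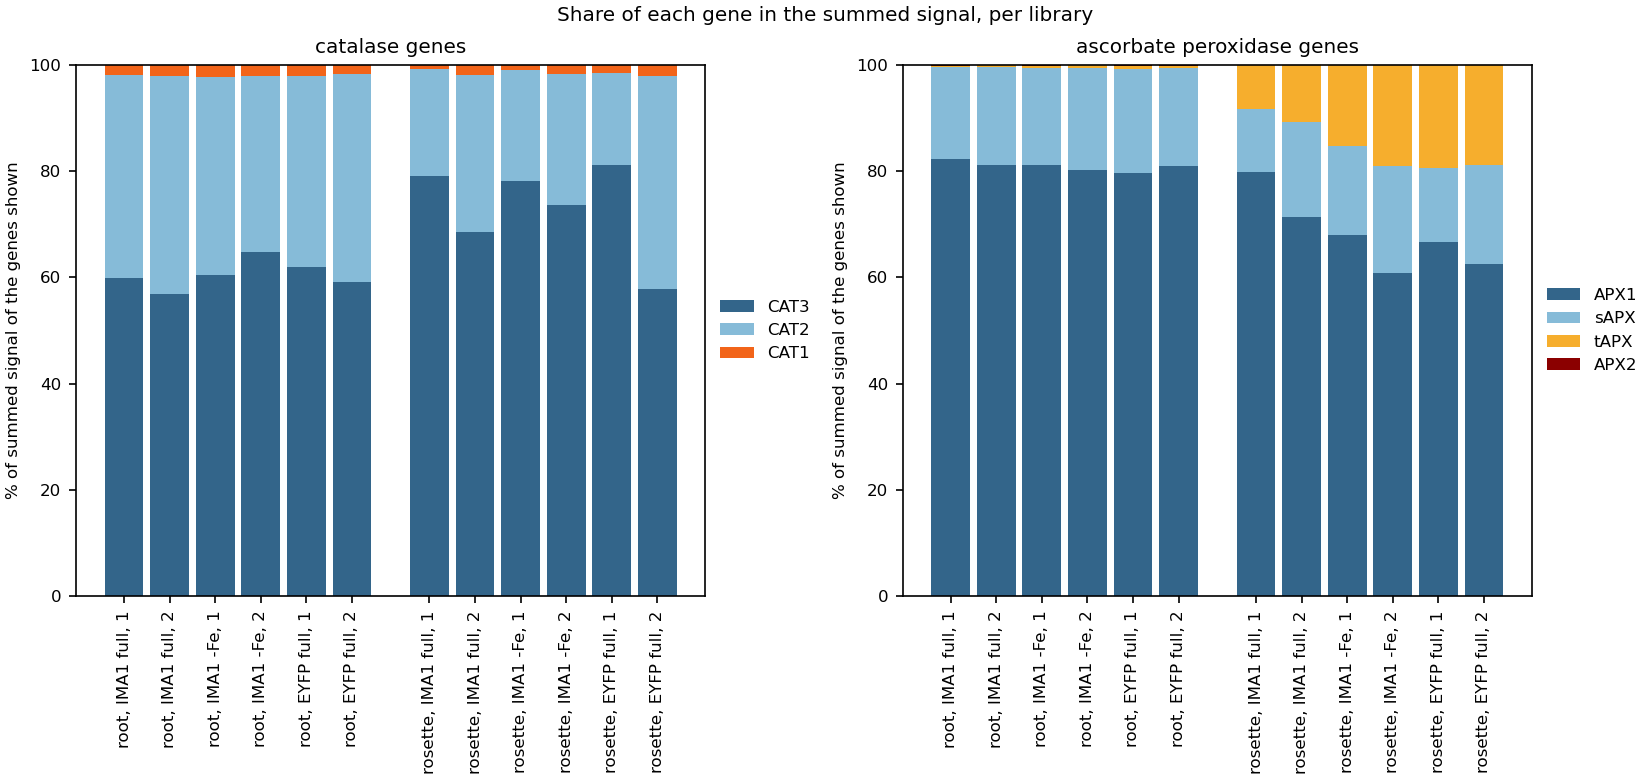
Share of each gene in the summed signal of the genes shown (vertical axes, percent) in the 12 libraries, for the 3 catalase genes and for the 4 ascorbate peroxidase genes without APX3 to APX6. In rosettes the tAPX share was 8.22% and 10.8% in IMA1 OE on full medium, the smallest of the 6 rosette libraries, and in roots it never exceeded 0.578%. The sum includes APX1, so the APX1 level moves the tAPX share.

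The genes most like each of the 6 tested genes were sought among 17159 genes by Pearson's r over the 12 libraries, after the mean of each organ had been subtracted. These r values are descriptions, since the libraries share organ, groups and normalization. For APX1 the nearest were MDAR2 (r = 0.951), a monodehydroascorbate reductase that regenerates the ascorbate oxidized by ascorbate peroxidases, and FER3 (r = 0.948), a ferritin, the plastid protein that stores Fe. MDAR2 stood at 95.04 and 84.2 in IMA1 OE rosettes on full medium, against 60.6 and 59.0 in EYFP OE rosettes. In the table for Fe-deficient medium it stood at 59.2 and 60.7 in IMA1 OE rosettes, against 60.5 and 58.7 in EYFP OE rosettes. As for APX1, both IMA1 OE rosette libraries on full medium lay above the other 4 rosette libraries, and the gene was not called in any comparison (log2 change 0.57 in rosettes on full medium, SE 0.13, limma adjusted p 0.485).

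FER3 stood at 202 and 215 in IMA1 OE rosettes on full medium, against 70.9 and 87.1 in EYFP OE rosettes, with a log2 change of 1.40 (limma adjusted p 0.165, SE 0.16). In IMA1 OE rosettes on Fe-deficient medium it stood at 81.2 and 53.1. FER1, the ferritin with the largest change, stood at 1265 and 994 in IMA1 OE rosettes on full medium, against 59.4 and 279 in EYFP OE rosettes, a log2 change of 3.11 (limma adjusted p 0.491, SE 0.73).

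**Figure D4:**
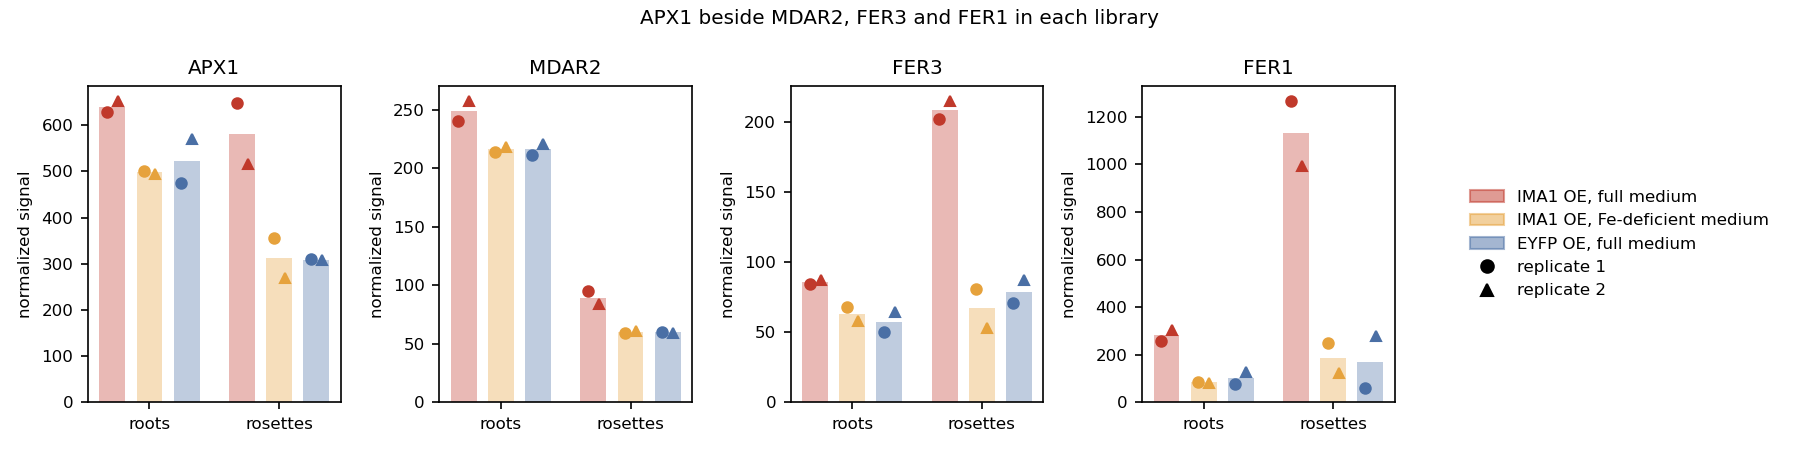
Normalized signal (vertical axes, no unit) of APX1, MDAR2, FER3 and FER1 by organ and group, with bars for means of 2 libraries and points for the libraries; EYFP OE values are those of the full-medium tables. In rosettes each of the 4 genes was highest in both IMA1 OE libraries on full medium, for FER1 at 1265 and 994 against 59.4 and 279 in EYFP OE.

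For CAT2 the nearest genes were NYE1 (r = 0.912), which acts in chlorophyll breakdown, and AT3G15180 (r = 0.907). For CAT3 they were AT5G43460 (r = 0.973) and ALAAT2 (r = 0.971), an alanine aminotransferase. tAPX was nearest to DEG2 (r = 0.950), a chloroplast protease, and GLYR2 (r = 0.933), a glyoxylate reductase. sAPX was nearest to AT3G21140 (r = 0.922) and AT3G46080 (r = 0.891), and CAT1 to AT2G22080 (r = 0.897) and AT2G24250 (r = 0.871). Among the genes themselves, APX1 varied most like CAT2 (r = 0.778) and sAPX (r = 0.618), and against tAPX (r = -0.660). CAT2 and CAT3 were only weakly alike (r = 0.337).

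Ascorbate peroxidases depend on enzymes that return oxidized ascorbate to use, and 10 such genes were examined. In roots on Fe-deficient medium 1 of the 10 was called, and it was higher. Of the 10 log2 changes there 8 were negative. By limma 3 of the 10 had an unadjusted p under 0.05, against 9.14% of all tested genes. Beside MDAR1, the called gene, these were DHAR1 (log2 change -0.35, limma adjusted p 0.409) and GR1 (log2 change -0.15, limma adjusted p 0.489), both lower in IMA1 OE. MDAR1, a monodehydroascorbate reductase of peroxisomes and cytosol, had a signal of 246 and 239 in Fe-deficient IMA1 OE roots, against 136 and 148 in EYFP OE roots. The means were 242 ± 5.098 in IMA1 OE and 142 ± 8.03 in EYFP OE (SD, n = 2 each), and MDAR1 rose by a log2 change of 0.77 (limma adjusted p 0.0134, SE 0.06). Leaving out any 1 of the 4 libraries kept the change between 0.71 and 0.82 but ended the call, with limma adjusted p-values of 0.0658 to 0.165, as did dropping the filter on low values (0.1804) or the intensity trend (0.0612). On full medium its root libraries overlapped, at 135 and 164 in IMA1 OE against 136 and 147 in EYFP OE. None of the 10 was called in the other 3 comparisons by limma, with 1 of 10 under an unadjusted p of 0.05 in roots on full medium, 2 of 10 in rosettes on full medium and 1 of 10 in rosettes on Fe-deficient medium. MDAR3 had the largest difference among them, averaging 5.25 ± 1.92 in IMA1 OE rosettes on full medium and 1.52 ± 0.66 in EYFP OE rosettes (SD, n = 2 each), with a limma adjusted p of 0.485. The medians of the 10 were -0.01 and -0.04 in roots on full and Fe-deficient medium, and 0.12 and 0.02 in rosettes on full and Fe-deficient medium.

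Other peroxide-handling genes had list medians between -0.10 and 0.04. The medians of all tested genes were -0.01 and -0.02 in roots and -0.03 and -0.03 in rosettes, on full and Fe-deficient medium in that order. None of these peroxide-handling genes was called by limma in any of the 4 comparisons. The 4 further genes named as ascorbate peroxidases, APX3 to APX6, had medians of -0.10 in both root comparisons, -0.06 in rosettes on full medium and -0.09 in rosettes on Fe-deficient medium. Their 1 unadjusted p under 0.05 was that of APX4, at 2.70 ± 0.82 in Fe-deficient IMA1 OE roots and 4.46 ± 0.35 in EYFP OE roots (SD, n = 2 each). APX6 averaged 19.8 ± 1.004 in IMA1 OE rosettes on full medium and 23.9 ± 1.49 in EYFP OE rosettes (SD, n = 2 each). The 7 ascorbate synthesis genes had medians of -0.01 and -0.09 for roots and -0.02 and 0.01 for rosettes, on full and Fe-deficient medium in that order. VTC4, an enzyme of that route, was the 1 gene of the list with an unadjusted p under 0.05, at 21.4 ± 2.11 in Fe-deficient IMA1 OE roots and 28.9 ± 1.09 in EYFP OE roots (SD, n = 2 each; limma adjusted p 0.2096). VTC2, which catalyses the committed step, averaged 207 ± 35.0 in IMA1 OE rosettes on full medium and 176 ± 67.5 in EYFP OE rosettes (SD, n = 2 each).

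The list of thiol peroxidases, which reduce peroxides without heme, held 11 genes, of which 10 were tested in roots, and its medians were -0.02 and -0.06 for roots and -0.02 and -0.05 for rosettes, on full and Fe-deficient medium in that order. Their 1 unadjusted p under 0.05 was in roots on Fe-deficient medium, for PRXQ, a chloroplast peroxiredoxin, with a log2 change of -0.51 (limma adjusted p 0.528, SE 0.19). 2CPA, another chloroplast peroxiredoxin, had a log2 change of -0.26 in rosettes on full medium (limma adjusted p 1, SE 0.17). The list of 8 photorespiration and catalase maturation genes, of which 7 were tested in rosettes, had medians of -0.03 and -0.06 for roots and 0.02 and 0.04 for rosettes, in the same order of media, with 2 unadjusted p under 0.05 in each root comparison and 0 in rosettes. GOX1, a glycolate oxidase that makes the peroxide catalases remove, averaged 1.52 ± 1.25 in Fe-deficient IMA1 OE roots and 4.13 ± 0.59 in EYFP OE roots (SD, n = 2 each; limma adjusted p 0.426). HPR1, a hydroxypyruvate reductase, averaged 3.27 ± 1.07 in Fe-deficient IMA1 OE roots and 6.83 ± 0.25 in EYFP OE roots (SD, n = 2 each; limma adjusted p 0.1995). In rosettes, where these genes are high, GOX1 averaged 748 ± 150.02 in IMA1 OE on full medium and 728 ± 106 in EYFP OE (SD, n = 2 each). The catalase chaperone NCA1 averaged 72.9 ± 8.73 in IMA1 OE rosettes on full medium and 68.9 ± 0.00707 in EYFP OE rosettes (SD, n = 2 each).

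The 4 ferritins had medians of 0.50 and 0.01 for roots and 1.40 and 0.45 for rosettes, on full and Fe-deficient medium in that order. FER2 was not tested in rosettes on Fe-deficient medium, where 3 were tested. limma called 0 in each comparison, while 4 of 4 had an unadjusted p under 0.05 in roots and in rosettes on full medium, and 0 on Fe-deficient medium. FER4 averaged 177 ± 2.40 in IMA1 OE rosettes on full medium and 69.9 ± 32.2 in EYFP OE rosettes (SD, n = 2 each). The 9 heat and high-light responders had medians of 0.23 and 0.35 for roots and -0.07 and -0.07 for rosettes, with 0 called by limma and 2 unadjusted p under 0.05 in each rosette comparison. ZAT10, a zinc finger regulator of high-light responses, averaged 75.5 ± 1.09 in Fe-deficient IMA1 OE rosettes and 42.0 ± 2.69 in EYFP OE rosettes (SD, n = 2 each; limma adjusted p 0.648). HSFA2, a heat shock factor, averaged 23.3 ± 21.7 in Fe-deficient IMA1 OE roots and 7.83 ± 4.66 in EYFP OE roots (SD, n = 2 each), so its libraries within a group lay far apart.

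The 7 clock genes had medians of 0.00 and 0.03 for roots and 0.14 and 0.06 for rosettes, with 0 called by limma and 0 unadjusted p under 0.05. CCA1 and LHY had the largest differences, each with a log2 change of 0.47 in rosettes on Fe-deficient medium and a limma adjusted p of 0.9998. The 5 leaf markers, of which 4 were tested in roots, had medians of -0.42 and -0.56 for roots and 0.00 and -0.02 for rosettes, with 0 called and 3 unadjusted p under 0.05 in roots on Fe-deficient medium. RBCS1A, the small subunit of Rubisco, averaged 76.7 ± 30.1 in Fe-deficient IMA1 OE roots and 136 ± 0.54 in EYFP OE roots (SD, n = 2 each), and LHCB2.1, a light-harvesting protein, averaged 16.8 ± 2.54 in Fe-deficient IMA1 OE roots and 26.2 ± 4.99 in EYFP OE roots (SD, n = 2 each). The 5 root markers, of which 1 was tested in rosettes, had medians of 0.02 and 0.05 for roots and 0.07 and -0.02 for rosettes, with 0 called and 1 unadjusted p under 0.05 in each root comparison. PYK10, an abundant root beta-glucosidase, averaged 3565 ± 728 in IMA1 OE roots on full medium and 2203 in both EYFP OE libraries (limma adjusted p 0.678). EXPA7, an expansin of root hairs, averaged 24.1 ± 5.71 in IMA1 OE roots on full medium and 27.8 ± 1.44 in EYFP OE roots (SD, n = 2 each).

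**Figure D5:**
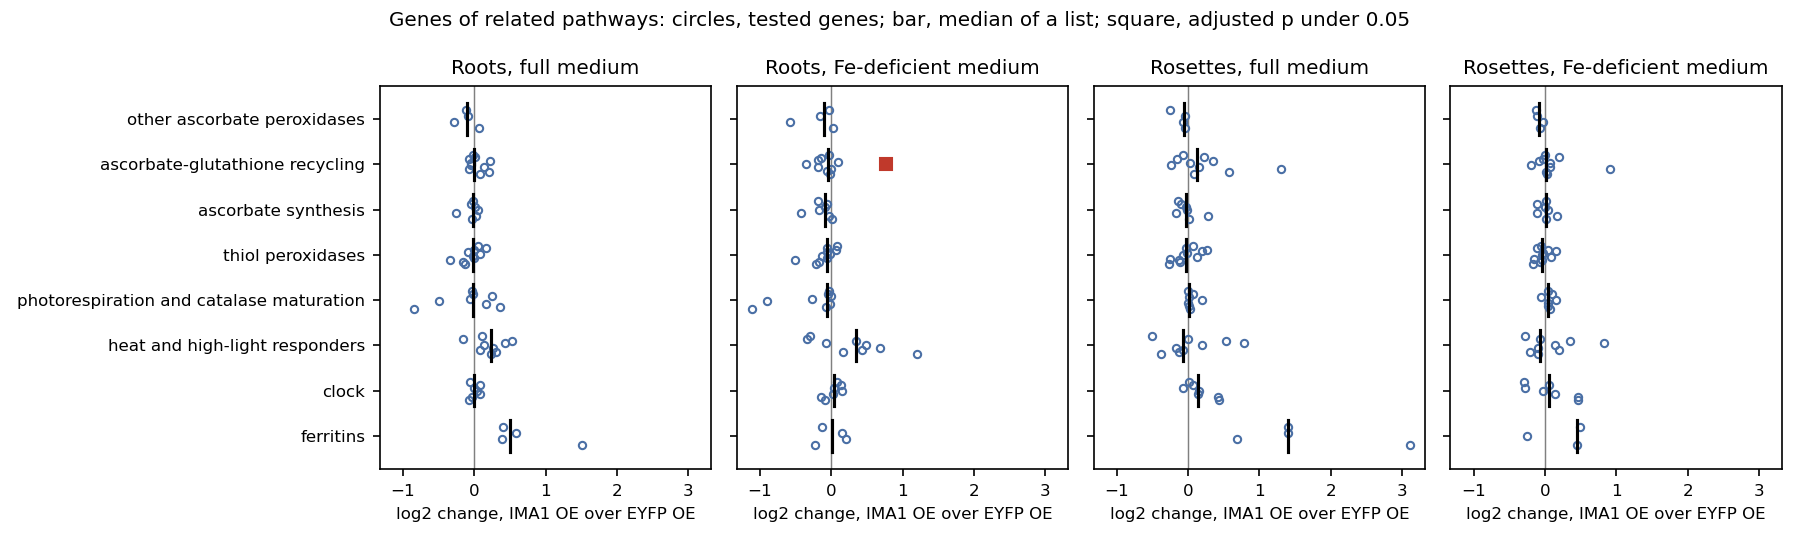
Log2 change in IMA1 OE over EYFP OE (horizontal axis, log2(signal + 1) scale) of the tested genes of 8 related lists in the 4 comparisons, with circles for genes, a bar for the median of a list and a square for a limma adjusted p under 0.05. The 1 square is MDAR1 in roots on Fe-deficient medium, at 0.77, and the ferritin median was 1.40 in rosettes on full medium.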

How the data were processed

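The authors deposited 4 tables, each with 4 library columns, of a normalized signal per gene, whose names give TMM and no unit, with a p-value from a Z-test, a log2 fold change and a filter flag, per the file headers. Some genes hold identical values in different library columns. The submitters' processing notes name bcl2fastq 1.8.4, Trimmomatic 0.35, Bowtie2 2.0.6, edgeR 3.12.1, limma 3.26.9 and the build TAIR10. Unread genes share a floor that falls with gene length (r = -0.75 to -0.83 between their logs), so the signal is length-scaled. Read depth is unknown, so no counting interval is given.

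Columns were assigned to samples through headings and labels (columns of single libraries left out: 0). Values were analysed as log2(signal + 1), so changes of low genes are understated. Genes at 1 or more in at least 2 of 4 columns were tested with limma 3.58.1 in R 4.3.3 (lmFit, eBayes with trend, two-sided). The p-values were adjusted by Benjamini-Hochberg over all tested genes, with a threshold of 0.05. The organ difference was the interaction term over 8 columns. The method was tested on simulated data, with independent libraries and a spread set by signal level alone. That test does not cover spread particular to a gene or deviations shared by same-numbered libraries. Alternatives were a pseudocount of 0.1, no filter, no trend, median centring, a replicate block and leaving out each library. Named beside the 7 genes were IMA1, list genes past the threshold (otherwise the 2 largest changes of a list) and the 2 genes most alike each gene. DHAR1, GR1, NCA1, TOC1, the other clock genes, the other leaf markers and further values of named genes were added after their values were seen. The genes and lists were chosen with earlier results of these data known. Of 33607 identifiers, 32835 matched the RefSeq table. Sequences are from RefSeq, TAIR10.1, read with Biopython 1.88.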

Additional observations from a re-analysis of the deposited data

Results flagged for a closer look

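CAT2 in roots stood out because both IMA1 OE libraries lay on opposite sides of EYFP OE on the 2 media. The log2 change was 0.19 on full medium, with IMA1 OE libraries at 186.43 and 186.13 against 158 and 168 in EYFP OE, and -0.28 on Fe-deficient medium, with IMA1 OE libraries at 139 and 130.5 against 159 and 168 in EYFP OE. The difference between these changes was not tested, and both were measured against the same EYFP OE libraries.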

How the results depend on the processing

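None of the 6 tested genes was called under any alternative. Their 384 values under alternatives included 0 with a limma adjusted p under 0.05, and the lowest was 0.0582, for CAT3 in rosettes on full medium with the replicate number as a block. APX1 there had an adjusted p of 0.0745 with the block, and 0.0745 to 0.9997 over its alternatives. Of the 192 values without a left-out library, 191 kept their direction, and the exception was the organ difference of tAPX on full medium, 0.042 with the pseudocount of 1 and -0.044 with a pseudocount of 0.1. Leaving out 1 library turned 18 of 192 values: the ranges were -0.025 to 0.15 for CAT3 in roots on full medium, and in roots on Fe-deficient medium -0.025 to 0.16 for CAT1 and -0.24 to 0.038 for APX1. In rosettes they were -0.16 to 0.22 for CAT1 on full medium, and on Fe-deficient medium -0.25 to 0.10 for CAT1, -0.071 to 0.47 for CAT2, -0.011 to 1.12 for CAT3, -0.21 to 0.20 for APX1 and -0.044 to 0.46 for sAPX. For the organ difference they were -0.052 to 0.32 for CAT1 and -0.070 to 0.15 for tAPX on full medium, and -0.027 to 0.32 for CAT1 and -0.30 to 0.11 for APX1 on Fe-deficient medium.

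The number of all genes called moved far more, and the cause was not tested. Without the filter it was 141 in roots and 113 in rosettes on full medium, 130 in rosettes on Fe-deficient medium, and 133 and 164 for the organ difference on full and Fe-deficient medium, against 7, 2, 1, 4 and 66. With the replicate block it was 16 and 323 in roots on full and Fe-deficient medium, 60 in rosettes on full medium and 0 for the organ difference on full medium, against 7, 181, 2 and 4. Without the trend 120 genes were called in roots on Fe-deficient medium, against 181. A pseudocount of 0.1 gave 1 in rosettes on full medium, against 2, and 33 for the organ difference on Fe-deficient medium, against 66. Asking for the filter in both organs gave 1 and 20 for the organ difference, against 4 and 66. Leaving out 1 library gave 0 to 4 and 55 to 80 in roots on full and Fe-deficient medium, 0 to 10 and 0 to 4 in rosettes, and 0 to 17 and 30 to 94 for the organ difference.

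The replicate numbers were shared between groups, but the labels do not say that a number marks a batch. Deviations of same-numbered IMA1 OE and EYFP OE libraries correlated across genes at 0.27 and 0.24 in roots and at 0.40 and 0.45 in rosettes, and those of IMA1 OE libraries on the 2 media at 0.53 in roots and 0.58 in rosettes, with 2 pairs each, so the block is only an alternative, and a call under it is not read further. CAT3 in IMA1 OE rosettes on full medium was 1.66 and 1.73 times the same-numbered EYFP OE library. Read depth is unknown, and with 2 libraries a group none of the differences of the 6 genes passed after adjustment over all tested genes.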
